A study of Mus musculus with 6 samples.

Results

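The genes described here are 35 named genes of the p53 pathway and of the response to DNA damage, in mouse embryonic stem cells with and without knockdown of Trim71. They were chosen by name, with earlier results of these data known, and looked up in the platform's annotation. Of the 35, 32 had a probe set with 1 gene symbol, each of them exactly 1 such probe set, among 19937 genes in all. Trp53 itself, Bax and Gdf15 were not analysed here. The study compared 3 arrays of Trim71 KD cells with 3 arrays of control cells. The knockdown cells were transfected with a mixture of 3 siRNAs against Trim71, an RNA-binding ubiquitin ligase of early embryos also called Lin41, by means of the lipid reagent Dharmafect1. They were harvested 72 h later. The control arrays are labelled wild-type, while the protocol names a non-targeting siRNA as the negative control, and which of these the cells were is not settled. Neither the stem cell line nor the use of feeder cells is given in the sources used here. The labels do not say that the 3 replicates were separate cultures, so the spread behind each p-value may be technical.

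The transcription factor p53 is held low in unstressed cells because Mdm2, a ubiquitin ligase, and its partner Mdm4 bind it, and because Mdm2 is itself a p53 target the pair forms a feedback loop. Damage to DNA activates the kinases Atm and Chek2, which release p53. Its targets then halt the cell cycle, repair DNA, adjust metabolism or start apoptosis through mitochondria and death receptors. Mouse embryonic stem cells contain abundant p53, divide with little G1 control and are prone to die after damage.

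After the knockdown 2 of the 32 genes rose, Gadd45a and Polk, and 0 fell. Gadd45a, a stress sensor that slows the cell cycle, rose 1.25-fold, and Polk, a DNA polymerase that copies past damaged bases, rose 1.24-fold. Neither passed in all 6 fits that left out 1 array. In bulk RNA a change in each cell and a change in the share of some cells cannot be told apart. The other 30 did not pass the test, and they included Mdm2, Mdm4, Atm, Chek2 and the apoptosis genes Pmaip1, Bbc3, Perp and Apaf1. The 2 calls are 6.25% of the 32 genes. Among all 19937 genes 5.53% were called, 3.39% higher and 2.15% lower, so the share among these genes is near the background. A call here means a p from limma's moderated test that stays under 0.05 after Benjamini-Hochberg adjustment over all 19937 genes. The 675 higher and 428 lower calls became 779 and 763 after repeated quantile normalization and 527 and 616 after median centring, while the 32 genes held 4 and 2 higher calls and 0 lower calls in both.

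Promoter sequences are shown for Gadd45a and its paralogs Gadd45b and Gadd45g, of which Gadd45a alone was called, and for Polk and Mdm2. They are RefSeq windows of build GRCm38.p6, from 250 bases before the annotated gene start to 50 bases after it, written 5′ to 3′ along the gene. Capitals mark every match, on either strand, to the 5 motifs searched, which were the p53 half-site, the GC box GGGCGG, the CCAAT box, the TATA box TATAAA and the octamer ATTTGCAT. In Gadd45a these are the half-site, the octamer and the CCAAT and GC boxes. In Gadd45b they are the CCAAT, TATA and GC boxes, in Gadd45g the octamer and the CCAAT and TATA boxes, and in Mdm2 the half-site and the GC and CCAAT boxes. Polk has 2 annotated starts, and because it lies on the minus strand the window printed first is the downstream one. That window holds the half-site and has 4 CpG dinucleotides and 44.3% G and C. The upstream window, printed second, holds the GC box and has 25 and 68.7%.
Gadd45a, chr6:67037358-67037657, minus strand: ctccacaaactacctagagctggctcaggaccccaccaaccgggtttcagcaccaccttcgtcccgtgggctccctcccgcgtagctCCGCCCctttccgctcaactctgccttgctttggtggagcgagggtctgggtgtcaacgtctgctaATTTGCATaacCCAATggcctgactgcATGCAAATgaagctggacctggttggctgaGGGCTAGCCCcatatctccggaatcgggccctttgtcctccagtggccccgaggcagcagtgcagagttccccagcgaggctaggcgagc
Gadd45b, chr10:80929841-80930140, plus strand: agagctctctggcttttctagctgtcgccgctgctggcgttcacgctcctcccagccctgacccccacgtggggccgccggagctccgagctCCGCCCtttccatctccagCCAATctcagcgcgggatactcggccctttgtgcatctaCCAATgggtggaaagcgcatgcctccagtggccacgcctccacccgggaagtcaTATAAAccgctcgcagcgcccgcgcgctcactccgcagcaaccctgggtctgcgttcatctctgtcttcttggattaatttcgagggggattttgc
Gadd45g, chr13:51846425-51846724, plus strand: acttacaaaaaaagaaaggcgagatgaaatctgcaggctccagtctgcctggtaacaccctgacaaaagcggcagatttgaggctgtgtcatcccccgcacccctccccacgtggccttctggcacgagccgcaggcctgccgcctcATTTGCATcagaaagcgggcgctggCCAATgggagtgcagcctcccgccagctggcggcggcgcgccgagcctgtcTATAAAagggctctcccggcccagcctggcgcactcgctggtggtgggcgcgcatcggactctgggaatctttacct
Mdm2, chr10:117710709-117711008, minus strand: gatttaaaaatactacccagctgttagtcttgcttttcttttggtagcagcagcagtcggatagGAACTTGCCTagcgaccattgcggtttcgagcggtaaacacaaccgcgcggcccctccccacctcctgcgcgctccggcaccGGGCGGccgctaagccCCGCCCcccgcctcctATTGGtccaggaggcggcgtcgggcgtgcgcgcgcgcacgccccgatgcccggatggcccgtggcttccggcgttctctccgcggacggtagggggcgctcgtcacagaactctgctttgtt
Polk, chr13:96519138-96519437, minus strand: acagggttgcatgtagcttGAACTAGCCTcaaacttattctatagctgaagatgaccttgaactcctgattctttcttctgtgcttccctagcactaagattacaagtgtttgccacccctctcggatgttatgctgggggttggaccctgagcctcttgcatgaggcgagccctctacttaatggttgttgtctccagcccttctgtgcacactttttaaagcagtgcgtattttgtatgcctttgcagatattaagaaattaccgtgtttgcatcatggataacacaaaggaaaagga
Polk, chr13:96542530-96542829, minus strand: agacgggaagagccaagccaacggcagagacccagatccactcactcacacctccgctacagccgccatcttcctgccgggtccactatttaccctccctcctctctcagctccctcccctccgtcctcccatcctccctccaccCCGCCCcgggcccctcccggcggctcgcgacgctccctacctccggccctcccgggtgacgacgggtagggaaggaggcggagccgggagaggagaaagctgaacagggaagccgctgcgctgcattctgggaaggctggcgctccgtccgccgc

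Of the 32 genes, 24 had at least 1 such window, 31 windows in all. A match to the p53 half-site consensus, which reads the same on both strands, was present in 9 of the 31 windows (29.0%) and in 8 of the 24 genes. Among all 32851 windows of the same length 8.36% held one. The 2 windows of Aen overlap and hold the same half-site, which is counted in both. The genes were listed as p53 targets or as other genes of the p53 pathway and damage response, so the 29.0% is a description of the list. Besides Gadd45a, Mdm2 and Polk, the 8 were Aen, Ckap2, Ei24, Sesn1 and Ccng1, all 5 of which did not pass the test. Their half-sites, in capitals with 10 bases on each side, are shown for 4 of these 5 genes, without Sesn1.
Aen, an apoptosis-enhancing nuclease, 121 bases before the second of its 2 starts: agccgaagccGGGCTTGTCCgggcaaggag
Ei24, a membrane protein of the endoplasmic reticulum, 10 bases before the start: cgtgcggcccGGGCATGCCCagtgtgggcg
Ccng1, cyclin G1, 185 bases before the start: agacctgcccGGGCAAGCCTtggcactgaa
Ckap2, a spindle protein, 203 bases before the start: ctgtgtctgaAGACATGTCCtgacttgtca
The octamer ATTTGCAT, searched on both strands, lay in the windows of Gadd45a, Gadd45g and Eda2r. That is 3 of the 31 windows (9.68%), against 1.74% of all windows, and Gadd45a held it on both strands, 97 and 70 bases before the start. CCAAT lay in 16 of the 31 windows (51.6%), against 37.4% of all windows. GGGCGG lay in 22 of the 31 (71.0%), against 35.7% of all windows, and TATAAA in 4 of the 31 (12.9%), against 13.6%. Windows of Aen and of Bbc3 overlap, so some matches are counted in more than 1 window. A match is a stretch of letters and shows no binding.

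The knockdown itself was read first. Trim71 had log2 levels of 9.0, 8.95 and 8.98 on the knockdown arrays, against 10.48, 10.50 and 10.51 on the control arrays. The groups were far apart, and 34.9% of the control level remained (95% interval 32.4% to 37.5%). An exact two-sided permutation test over arrays gave p = 0.1, which is the lower limit of this design. The 10 embryonic stem cell markers examined, among them Pou5f1, Sox2 and Nanog, read between 9.81 and 13.0 on the knockdown arrays and between 9.53 and 13.0 on the control arrays. Zfp42 and Klf4 rose (2 of 10), where 3.39% of all genes and 5.69% of genes whose mean level was at or above the median were called higher. Of the 10, 9 had a positive log2 fold change. An unadjusted p under 0.05 in limma was reached by 5, against 19% of all genes and 27.8% of those brighter genes. The summed log2 level of the 10 was 114.8 to 115.4 on the knockdown arrays against 113.6 to 114.0 on the control arrays. Of 10 fibroblast genes 2 fell, the smooth muscle genes Acta2 and Tagln, where 2.15% of all genes were called lower. The 10 had 7 negative and 3 positive log2 fold changes, with a median of −0.02 and a lowest value of −0.70. Their summed log2 level was 60.2 to 61.6 on the knockdown arrays against 61.7 to 63.1 on the control arrays. Of 6 trophoblast and 5 endoderm genes 0 were called in limma, with 2 and 0 at an unadjusted p under 0.05. Their summed log2 levels were 38.4 to 38.8 and 29.0 to 29.5 on the knockdown arrays, against 38.6 to 39.2 and 29.6 to 30.02 on the control arrays. The values carry no detection call, so no marker was called absent. Knockdown array 3 stood apart, with an upper quartile of 8.42 against 8.32 to 8.35 on the other 5 arrays. The part that these marker shifts play in the changes below was not tested.

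**Figure D1:**
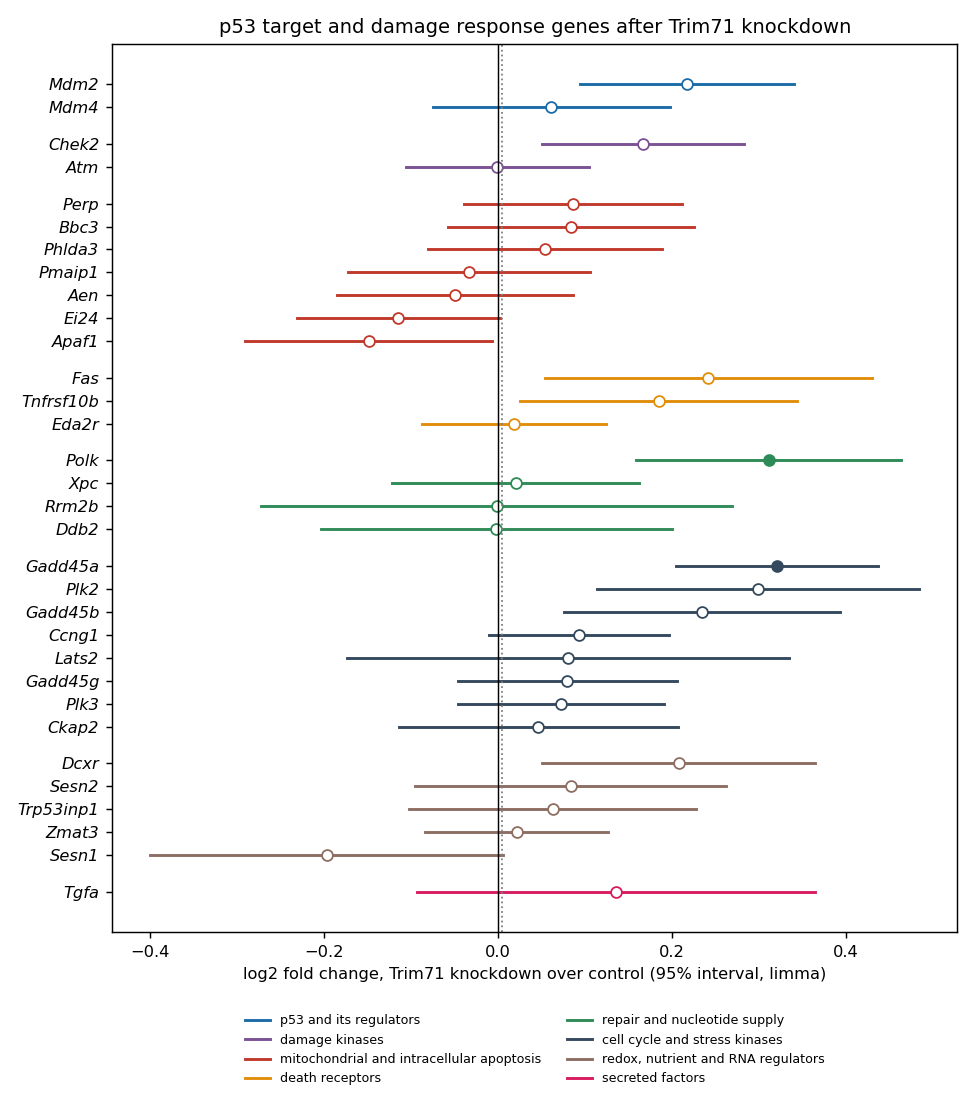
Log2 fold change of each of the 32 genes, Trim71 knockdown over control, with its 95% interval from limma, grouped by role. Filled points passed the adjusted p of 0.05 and the dotted line is the median of all 19937 genes. Gadd45a and Polk are filled, and Sesn1 lies farthest to the left at −0.20.

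Most genes of the group lay slightly above their control level. Of the 32, 24 had a positive log2 fold change and 8 a negative one, where 51.8% of all genes were positive, and the median was 0.08, against 0.005 for all genes. Their changes ran from −0.20 for Sesn1 to 0.32 for Gadd45a. Every one of the 32 intervals lay inside a 1.5-fold change in either direction, and 21 lay inside a 1.25-fold change. The values of the knockdown and control arrays did not overlap for 12 genes, 10 higher and 2 lower. That is 37.5%, against 25.5% of all genes, 14.7% higher and 10.8% lower, and against 38.3% of the 9969 genes whose mean level was at or above the median. Of the 32 genes, 29 belonged to those 9969, of which 9.24% were called. At an unadjusted p under 0.05 there were 10 of the 32 genes, 9 higher and 1 lower (31.25%), against 19% of all genes and 27.8% of the 9969.

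The shift was largest on knockdown array 3, and its part in the result was not tested beyond leaving that array out. Relative to the control mean, the median of the 32 genes was 0.04 on knockdown array 1, 0.06 on array 2 and 0.13 on array 3. Genes at or above the median level had medians of −0.01, −0.01 and 0.06 on the same 3 arrays. Knockdown array 3 gave the highest of the 3 knockdown values for 24 of the 32 genes, against 48.7% of all genes and 72.9% of genes at or above the median level. Without that array the median fold change of the 32 genes was 0.03 on the log2 scale. Without knockdown array 3 Fas, Polk, Gadd45a and Plk2 were called. Without knockdown array 1 Gadd45a was called, and without knockdown array 2 or any 1 control array 0 of the 32 were, although between 5 and 8 had a higher value at an unadjusted p under 0.05 in limma.

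**Figure D2:**
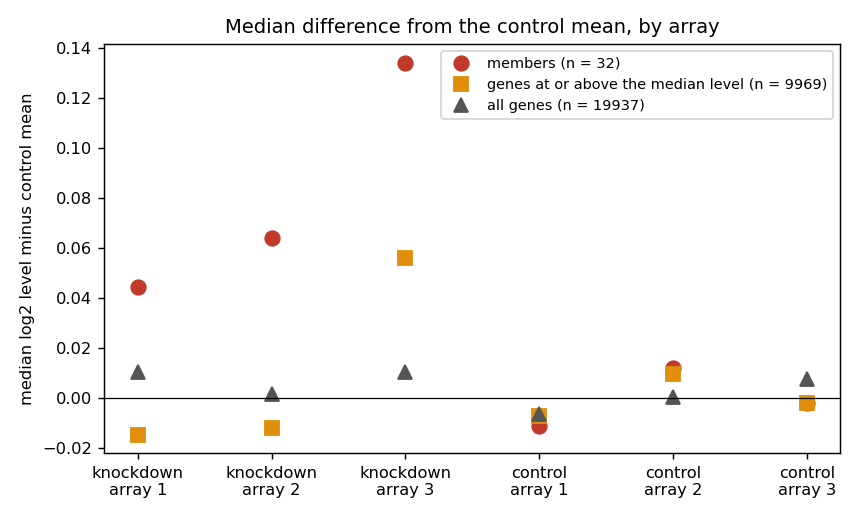
Median log2 level minus the mean of the control arrays, for each of the 6 arrays, over the 32 genes, over the 9969 genes at or above the median level and over all 19937 genes. Knockdown array 3 has the highest median for the 32 genes, 0.13, and for the genes at or above the median level, 0.06.

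**Figure D3:**
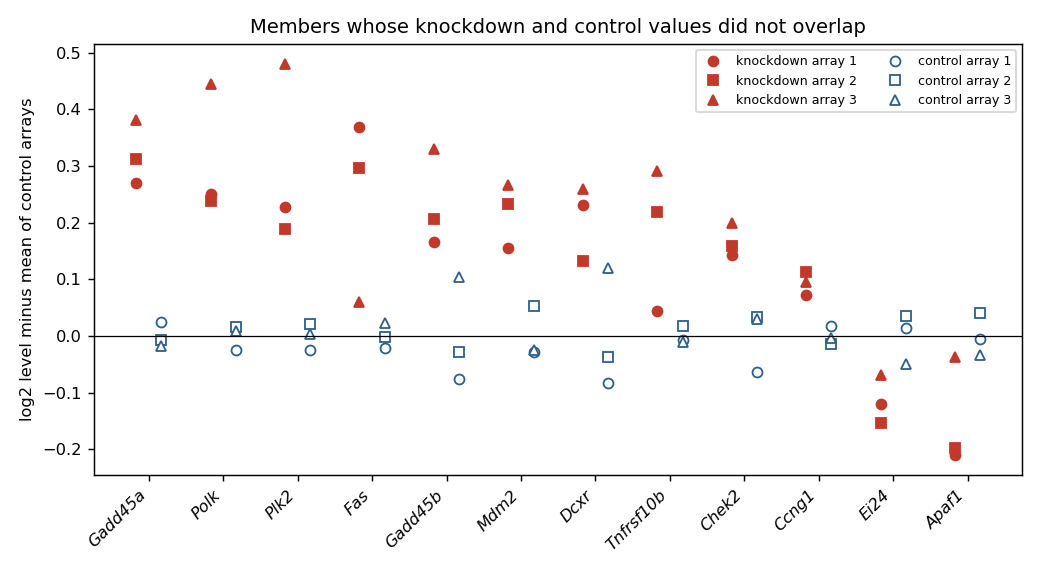
Log2 level minus the mean of the 3 control arrays, per array, for the 12 genes whose knockdown and control values did not overlap. Red symbols are knockdown arrays 1 to 3 and open blue symbols control arrays 1 to 3. Gadd45a, Polk, Plk2, Gadd45b, Mdm2, Dcxr, Tnfrsf10b and Chek2 have their highest value on knockdown array 3. Ccng1 has its highest on knockdown array 2, and Fas has its lowest knockdown value on array 3.

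The core of the pathway comes first. Mdm2 had log2 levels of 10.26, 10.33 and 10.37 on the knockdown arrays, against 10.07, 10.15 and 10.08 on the control arrays. Its groups did not overlap, with the lowest knockdown value above the highest control value. The log2 fold change was 0.22 ± 0.053 (SE, 95% interval 0.09 to 0.34), a 1.16-fold difference that did not pass the test (limma adjusted p = 0.0597). Mdm2 was called higher in 4 of 15 alternatives, over which its limma adjusted p ran from 0.00263 to 0.222. Mdm4, which binds and masks p53 without degrading it, had 10.37, 10.49 and 10.54 on the knockdown arrays, against 10.44, 10.41 and 10.37 on the control arrays. Its groups overlapped, and its log2 fold change was 0.06 with an interval of −0.07 to 0.20. Mdm4 thus stayed within 1.25-fold of its control level over the whole interval.

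Neither damage kinase gene was called. Atm, which senses double-strand breaks, had 9.18, 9.16 and 9.22 on the knockdown arrays, against 9.17, 9.19 and 9.19 on the control arrays. These values overlapped throughout, and the interval of its log2 fold change ran from −0.11 to 0.10. Chek2, the kinase that Atm activates and that phosphorylates p53, had 8.58, 8.60 and 8.64 on the knockdown arrays, against 8.38, 8.47 and 8.47 on the control arrays. All 3 knockdown values were above all 3 control values. Its log2 fold change of 0.17 ± 0.050 SE (interval 0.05 to 0.28) did not pass the test (limma adjusted p = 0.115).

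The cell cycle and stress kinase genes included Gadd45a, whose fold change was the highest of the 32. All 8 had a positive log2 fold change, against 51.8% of all genes, and their median was 0.09. The 1 call is 12.5% of them, against 5.53% of all genes and 9.24% of genes at or above the median level. Gadd45a had log2 levels of 9.96, 10.01 and 10.08 on the knockdown arrays, against 9.72, 9.69 and 9.68 on the control arrays. The groups were well apart, with every knockdown array above every control array. It averaged 10.02 ± 0.057 in knockdown cells and 9.69 ± 0.022 in control cells (SD, n = 3 each), a log2 fold change of 0.32 ± 0.050 SE (limma adjusted p = 0.0141). The call was kept without knockdown array 1 (adjusted p = 0.0287) and without knockdown array 3 (0.0194). It was lost without knockdown array 2 (0.0589) and without control array 1, 2 or 3 (0.068, 0.0739 and 0.0637), while the fold change stayed between 0.29 and 0.35 in those 6 limma fits.

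Gadd45b and Gadd45g encode proteins related to Gadd45a that likewise bind stress kinases and cell cycle factors. Gadd45b had 9.54, 9.58 and 9.70 on the knockdown arrays, against 9.29, 9.34 and 9.47 on the control arrays. The groups did not overlap, and control array 3 came close to knockdown array 1. Its log2 fold change was 0.23 ± 0.068 SE (limma adjusted p = 0.105). Gadd45g had 5.94, 5.99 and 5.91 on the knockdown arrays, against 5.94, 5.80 and 5.87 on the control arrays, and its groups overlapped. Its change was 0.08 with an interval of −0.05 to 0.21. Whether the 3 paralogs differ from each other was not tested.

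Plk2 and Plk3, polo-like kinases induced by stress, were both not called. Plk2 had log2 levels of 8.39, 8.35 and 8.64 on the knockdown arrays, against 8.14, 8.18 and 8.16 on the control arrays. Its control values were tight and knockdown array 3 was far above the others. The log2 fold change was 0.30 ± 0.080 SE (limma adjusted p = 0.0812). Without knockdown array 3 it was 0.21 and was called (adjusted p = 0.0478), and over all alternatives its adjusted p ran from 0.0166 to 0.244. Plk3 had 9.03, 9.0 and 9.11 on the knockdown arrays, against 8.97, 8.95 and 9.01 on the control arrays, with groups that overlapped.

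Ccng1, a cyclin that recruits a phosphatase to Mdm2, had 11.88, 11.93 and 11.91 on the knockdown arrays, against 11.83, 11.80 and 11.81 on the control arrays. The groups did not overlap but lay close together, and its log2 fold change of 0.09 ± 0.044 SE did not pass the test (limma adjusted p = 0.316). Ckap2, which organises spindle microtubules, was at 0.05 and Lats2, a kinase of the Hippo pathway, at 0.08, both with overlapping groups. For Lats2 control array 2 read 7.26, above all 3 knockdown arrays (7.03, 7.04 and 7.23) and the other control arrays (6.86 and 6.93).

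Among genes of repair and nucleotide supply 1 of 4 rose, where 3.39% of all genes were called higher. Polk had log2 levels of 8.74, 8.73 and 8.94 on the knockdown arrays, against 8.47, 8.51 and 8.50 on the control arrays. Every knockdown array was above every control array, and knockdown array 3 was the highest. It averaged 8.81 ± 0.12 in knockdown cells and 8.49 ± 0.021 in control cells (SD, n = 3 each), a log2 fold change of 0.31 ± 0.066 SE (limma adjusted p = 0.0382). Without knockdown array 3 it was 0.24 and still called (adjusted p = 0.0272). The call was lost without knockdown array 1 (0.0592), knockdown array 2 (0.0762) and control arrays 1, 2 and 3 (0.152, 0.124 and 0.117), with limma fold changes from 0.30 to 0.35.

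The other 3 repair genes had changes near 0. Xpc and Ddb2 recognise lesions for nucleotide excision repair, and Rrm2b is the p53-induced subunit of ribonucleotide reductase. Xpc was at 0.02, with 6.89, 6.96 and 7.09 on the knockdown arrays, against 6.98, 6.97 and 6.94 on the control arrays. The sign of these 3 genes changed with the array left out. Rrm2b had the widest interval of all 32 genes, −0.27 to 0.27, and its knockdown arrays read 6.45, 6.23 and 6.0, against 6.34, 6.08 and 6.26 on the control arrays. Ddb2 had 6.77, 6.79 and 7.06 on the knockdown arrays, against 6.91, 6.93 and 6.78 on the control arrays.

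Of the 7 intracellular apoptosis genes measured 0 were called in limma. An unadjusted p under 0.05 was reached by 1 of them, Apaf1 (14.3%), against 19% of all genes. Apaf1, the scaffold of the apoptosome, had log2 levels of 8.52, 8.53 and 8.69 on the knockdown arrays, against 8.73, 8.77 and 8.70 on the control arrays. Its groups were separated by the narrow gap between knockdown array 3 and control array 3. The log2 fold change was −0.15 ± 0.061 SE (limma adjusted p = 0.242, and from 0.0400 to 0.507 over the alternatives). Ei24 was likewise below its control values without overlap, with 10.56, 10.53 and 10.61 on the knockdown arrays, against 10.69, 10.72 and 10.63 on the control arrays. Its change was −0.11 (limma adjusted p = 0.271).

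The BH3-only killers of mitochondrial apoptosis, Pmaip1 (Noxa) and Bbc3 (Puma), showed overlapping groups. Pmaip1 had 7.46, 7.36 and 7.29 on the knockdown arrays, against 7.45, 7.40 and 7.36 on the control arrays. Bbc3 had 6.92, 6.90 and 6.77 on the knockdown arrays, against 6.80, 6.71 and 6.83 on the control arrays. Their intervals ran from −0.17 to 0.11 for Pmaip1 and from −0.06 to 0.23 for Bbc3. Perp, a desmosomal protein, Phlda3, which restrains the kinase Akt, and the nuclease gene Aen lay at 0.09, 0.05 and −0.05, also with overlapping groups.

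Of the 3 death receptor genes 0 were called in limma and 2, Fas and Tnfrsf10b, had an unadjusted p under 0.05. A p that low was reached by 19% of all genes and by 27.8% of genes at or above the median level. Fas had log2 levels of 4.22, 4.15 and 3.91 on the knockdown arrays, against 3.83, 3.85 and 3.88 on the control arrays. These readings are dim on a scale that ran from 2.52 to 13.5, and knockdown array 3 lay near the controls. The log2 fold change was 0.24 ± 0.081 SE (limma adjusted p = 0.151). Without knockdown array 3 it was 0.33 and was called (adjusted p = 0.0160, in a range of 0.0145 to 0.357 over the alternatives). Tnfrsf10b, the receptor for the ligand TRAIL, had 10.03, 10.20 and 10.27 on the knockdown arrays, against 9.976, 9.999 and 9.972 on the control arrays. Here knockdown array 1 lay near the controls, and the change of 0.18 ± 0.068 SE did not pass (limma adjusted p = 0.193). Eda2r, a receptor of the ectodysplasin family, was at 0.02 with an interval of −0.09 to 0.12.

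Regulators of redox state, nutrients and RNA were called for 0 of 5 in limma. An unadjusted p under 0.05 was held by 19% of all genes and by 1 of these 5 (20%). This was Dcxr, a carbonyl and sugar reductase, with 8.57, 8.47 and 8.59 on the knockdown arrays, against 8.25, 8.30 and 8.45 on the control arrays. The groups were separated narrowly, by knockdown array 2 and control array 3, and the change was 0.21 ± 0.068 SE (limma adjusted p = 0.142). Sesn1 and Sesn2 encode sestrins, which restrain the growth kinase mTORC1. Sesn1 had 7.47, 7.62 and 7.80 on the knockdown arrays, against 7.90, 7.75 and 7.84 on the control arrays, a change of −0.20 ± 0.087 SE (limma adjusted p = 0.277). Sesn2 was at 0.08, with an interval of −0.10 to 0.26. Trp53inp1, a stress-induced p53 cofactor, was at 0.06, and Zmat3, an RNA-binding zinc finger protein, at 0.02. The growth factor gene Tgfa, the measured secreted factor of the list, was at 0.14 with overlapping groups, 7.55, 7.52 and 7.34 on the knockdown arrays against 7.14, 7.36 and 7.50 on the control arrays.

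**Figure D4:**
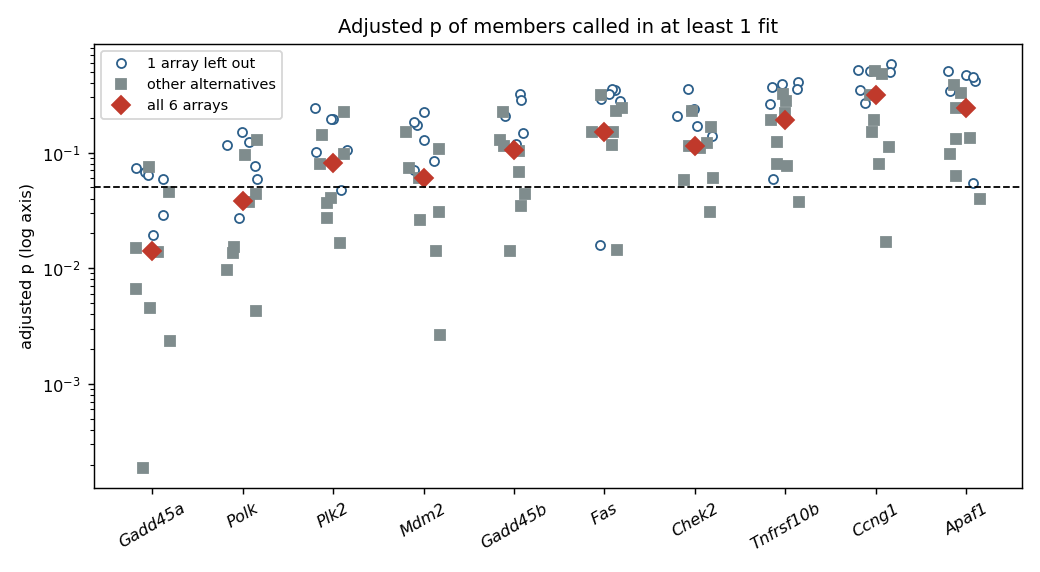
Limma adjusted p on a log axis for the 10 genes called with all 6 arrays or under at least 1 alternative. Diamonds are the fit of all 6 arrays, open circles fits with 1 array left out and squares the other alternatives, and the dashed line is 0.05. Gadd45a and Polk have their diamonds below the line, at 0.0141 and 0.0382, and every gene has symbols above it.

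Other genes of the pathway were taken from 5 further lists, with 133 of 146 genes measured. Of the 133, 13 rose and 4 fell, 12.8%, against 5.53% of all genes and 9.24% of genes at or above the median level. Of those 17 calls, 2 (Thbs1 and Bak1) passed in all 6 fits that left out 1 array. These lists were written with earlier results of these data known, among them the rises of Btg2 and Thbs1. Of 26 other p53 targets 7 rose and 1 fell, with a median log2 fold change of 0.12 against 0.005 for all genes. Thbs1, a matrix glycoprotein that also inhibits blood vessel growth, was at 0.51 ± 0.061 SE (limma adjusted p = 0.00596). Btg2, an antiproliferative gene, was at 0.39, and Ddit4, a stress-induced inhibitor of mTORC1, at 0.38. Pml, the scaffold of nuclear bodies, was at 0.33, the carnitine palmitoyltransferase gene Cpt1c at 0.31 and the peptide transporter gene Tap1 at 0.31. Wrap53, whose gene overlaps Trp53 head to head and encodes a telomerase cofactor, was at 0.26. Trp53i11 fell by 0.21 on the log2 scale. The next 4 by test statistic did not pass, Ephx1 at 0.44, Steap3 at 0.22, Epha2 at 0.18 and Fbxw7 at 0.23, with limma adjusted p-values from 0.0625 to 0.142.

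**Figure D5:**
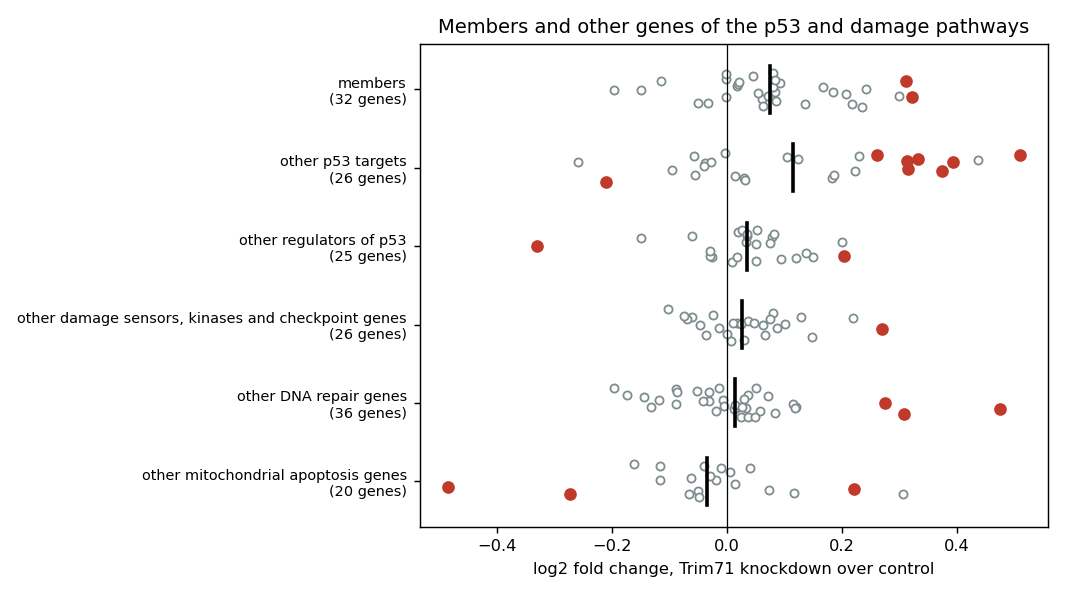
Log2 fold change, Trim71 knockdown over control, of the 32 genes and of 5 further lists, 1 point per gene, with points spread vertically for visibility. Filled red points passed the adjusted p of 0.05 and black bars are medians. The list of other p53 targets has 8 filled points and a median of 0.12.

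Genes upstream of p53 and in damage signalling were called at or near the background. Of 25 other regulators of p53 1 rose and 1 fell (8%). Among all genes 5.53% were called, and among genes at or above the median level 9.24%. An unadjusted p under 0.05 in limma was reached by 28% of the 25, against 19% and 27.8%. Kmt5a, a methyltransferase of histone H4 that also methylates p53, was at 0.20, and Ube2d1, a ubiquitin-conjugating enzyme that works with Mdm2, was at −0.33 ± 0.050 SE (limma adjusted p = 0.0123). Usp7, the deubiquitinase of Mdm2 and p53, was at 0.15 and the p53 kinase gene Hipk2 at −0.15, neither called, and the same held for Ppp1r13b at 0.20 and Aurka at 0.14. Of 26 other sensors, kinases and checkpoint genes 1 rose (3.85%), and 11.5% had an unadjusted p under 0.05 in limma. The riser was H2ax, the histone variant that is phosphorylated at breaks, at 0.27 ± 0.052 SE (limma adjusted p = 0.0277). Mdc1, which binds that mark, was at 0.22, Topbp1 at 0.15, Rad50 at 0.13 and Rad9a at 0.10, and these 4 were not called.

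Repair genes outside the list rose for 3 of 36 and fell for 0, in limma, where 1 lower gene had an unadjusted p under 0.05. The share called was 8.33%, against 5.53% of all genes and 9.24% of genes at or above the median level. Polh, a translesion polymerase that copies past ultraviolet lesions, was at 0.48 ± 0.068 SE (limma adjusted p = 0.0108). Ung, the uracil glycosylase of base excision repair, was at 0.31 and Mgmt, which removes alkyl groups from guanine, at 0.28. Lig4, the ligase of end joining, was at −0.20, Brca2 at 0.12, Ercc6 at 0.12 and Fanca at −0.12, all 4 not called. Of 20 other genes of mitochondrial apoptosis 1 rose and 2 fell, 15%, against the same 5.53% and 9.24%. Bak1, a pore-forming partner of Bax, was at −0.48 ± 0.063 SE (limma adjusted p = 0.00789). It had 9.30, 9.37 and 9.51 on the knockdown arrays, against 9.85, 9.88 and 9.91 on the control arrays, so that its groups were far apart. Casp2, a caspase linked to damage, was at −0.27, and Mcl1, which holds Bak1 inactive, at 0.22. Bik at 0.31, Casp9 at −0.16, Bcl2l11 at −0.12 and Casp8 at −0.12 were not called.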

How the data were processed

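Cleaned total RNA, 100 ng per sample, went through the Ambion WT Expression kit onto Affymetrix arrays, per the labels' protocols. The deposited values are log2 expression per probe set, made by the authors with RMA and the affy package per the submitters' processing notes. RMA normalizes arrays by quantiles, so a change shared by most genes cannot be seen. Platform annotation gave 21640 of 34760 probe sets 1 symbol. Where a gene had more than 1, the brightest by mean over all arrays stood for it, giving 19937 genes. Limma 3.58.1 in R 4.3.3 (lmFit, eBayes) was fitted to all of them with group as the term, and p-values were adjusted by Benjamini-Hochberg. Intervals are 95% intervals of that fit, errors its SE. The number of arrays limits the precision. Named genes are all listed members, Trim71, the called genes of the further lists and up to 4 uncalled genes of each by test statistic. The further lists, like the members, were chosen with earlier results of these data known. Python 3.11.15 (pandas 2.3.3) searched the motifs and drew the figures (matplotlib 3.10.9). Alternatives were the replicate block, each array left out, repeated quantile normalization, median centring, genes at or above the median level, probe set means, a trended and robust prior, array weights, no moderation and an adjusted p under 0.01.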

Additional observations from a re-analysis of the deposited data

How the results depend on the processing

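Signs held for 24 of the 32 genes under all alternatives run. The numbers of genes called higher and lower, 2 and 0 of the 32, 675 and 428 of all genes and 13 and 4 of the other pathway genes, changed as follows. With the replicate number as a block they were 0 and 0 of the 32, 171 and 108, and 2 and 1. At an unadjusted p under 0.05 in limma that fit had 9 higher and 0 lower of the 32. Of all genes it had 1832 higher and 1317 lower at that threshold. Same-numbered arrays did not deviate together (correlations of −0.07, −0.05 and −0.22). With 3 arrays per group this cannot settle whether a number marks a shared culture or day, which the labels do not say. Without moderation the counts were 1 and 0, 271 and 142, and 4 and 2. At an adjusted p under 0.01 they were 0 and 0, 152 and 94, and 1 and 1. With a trended and robust prior they were 7 and 0, 1213 and 854, and 21 and 5. With array weights they were 6 and 1, 1114 and 1058, and 17 and 5. A refit of only the 9969 genes at or above the median level held 29 of the 32. It gave 6 and 0, 1124 and 766, and 17 and 5. Quantile normalization repeated gave 4 and 0, and 779 and 763, and median centring 2 and 0, and 527 and 616. With 1 array left out the counts ranged from 0 to 4 and stayed at 0 lower among the 32, from 148 to 603 and 101 to 699 among all genes, and from 1 to 8 and 1 to 3 among the other pathway genes. The median of the 32 genes then ranged from 0.031 to 0.096, against 0.046 after median centring and 0.076 with all arrays. Near 0 some signs turned. Xpc was at −0.012 after repeated quantile normalization, −0.010 after median centring and −0.011 with array weights. Eda2r was at −0.012 and Zmat3 at −0.0087 after median centring, and Rrm2b at 0.036 and Ckap2 at −0.012 with array weights. With 1 array left out Atm ranged from −0.017 to 0.012, Ddb2 from −0.094 to 0.049, Rrm2b from −0.11 to 0.11, Xpc from −0.035 to 0.064, Ckap2 from −0.015 to 0.079 and Pmaip1 from −0.079 to 0.0079. The cause of these differences was not tested.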

Other observations

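The translesion polymerases were chosen after their values were seen. Polh and Polk were called higher in limma, at log2 fold changes of 0.48 and 0.31. Poli, which acts beside them, was at 0.08, with 9.0, 9.04 and 9.19 on the knockdown arrays against 9.04, 8.97 and 8.96 on the control arrays. Rev1, the scaffold of the group, was at −0.0053, with 9.40, 9.41 and 9.42 on the knockdown arrays against 9.35, 9.47 and 9.43 on the control arrays. Rev3l, the catalytic subunit of polymerase zeta, was at −0.14 with overlapping groups, and Rad18, the ligase that marks the sliding clamp for bypass, was at −0.013. Whether these genes differ from Polh and Polk was not tested. Pcna, the sliding clamp itself, had 12.65, 12.41 and 11.88 on the knockdown arrays, against 12.53, 12.55 and 12.63 on the control arrays, so that knockdown array 3 was the low one.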
